A study of Mus musculus with 9 samples.

Results

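The 10 genes described here encode naive pluripotency factors: Nanog, Klf2, Klf4, Klf5, Esrrb, Tfcp2l1, Zfp42, Prdm14, Dppa3 and Nr0b1. They were taken as a named list and found by gene symbol, and make up 10 of the 48440 genes in the count tables. All 10 passed the filter on low counts and were among the 20838 genes tested. RNA was measured by sequencing of polyadenylated transcripts in J1 mouse embryonic stem cells of the genotype Suz12-AID, where AID is a degron on Suz12, a protein tag through which auxin has the tagged protein destroyed. The Suz12 protein belongs to the core of the Polycomb complex PRC2, a histone H3 methyltransferase. There were 3 groups of 3 libraries, described as biological replicates: Mock; Auxin, with 50 µM indole-3-acetic acid for 96 h; and Reintroduction, in which the auxin was washed out for 4.5 h. Every group carried the degron and grew on gelatin in medium with 15% FBS, leukemia inhibitory factor (LIF), 1 µM of the MEK inhibitor PD0325901 and 3 µM of the GSK3 inhibitor CHIR99021. The labels do not say whether the line is a single clone, name the auxin receptor or say what the Mock cells received. No group without the degron was given auxin, so loss of Suz12 and auxin itself cannot be told apart. No group was washed without prior auxin. Return of Suz12, removal of auxin, the washing itself and the added 4.5 h therefore cannot be told apart either.

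Naive pluripotency is the state of the preimplantation epiblast, which mouse embryonic stem cells keep in culture when LIF is present and MEK and GSK3 are inhibited. LIF acts through the receptor Lifr and Il6st, the kinase Jak1 and the transcription factor Stat3, for which Klf4 and Tfcp2l1 are known targets. Inhibition of GSK3 stabilises beta-catenin, which relieves repression by Tcf7l1 at targets such as Esrrb. Inhibition of MEK blocks the FGF and ERK signal that drives cells out of the naive state. Several of the listed factors, such as Nanog, Esrrb and Klf4, are known to bind to each other's genes and to those of Pou5f1 and Sox2, and many genes of the list are switched off when cells move on to the formative and primed states.

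Library totals ran from 44341283 to 113931419 counts, with both mates of a pair counted. Values below are counts per 1000000 library counts (CPM) scaled with TMM factors, which adjust for differences in composition between libraries. Suz12 RNA was at 125 to 137 CPM in Mock, 122 to 152 in Auxin and 164 to 173 in Reintroduction; the degron acts on the protein, so RNA does not check its loss. The cells expressed the markers of pluripotent stem cells: the summed level of 7 markers was 2488 to 2662 CPM in Mock, 2432 to 2623 in Auxin and 2093 to 2130.4 in Reintroduction, and of these only Fut4 had a group mean under 1 CPM. That sum hides changes in both directions. In Auxin against Mock 3 markers were higher and 4 lower (edgeR, adjusted p under 0.05), beside 38.4% and 34.8% of all genes tested. Mean levels in Mock and Auxin were 374 and 749 CPM for Sox2, 465 and 132 for Lin28a, and 843 and 583 for Pou5f1. Pou5f1 stayed at 578 CPM in Reintroduction. The same all-gene shares apply to the other marker sets in Auxin. For Reintroduction against Mock they are 34.7% higher and 33.4% lower. Of 10 primitive endoderm markers, 8 were higher and 2 lower in Auxin against Mock by the same rule (median log2 fold change 1.35). Among those higher, Gata4 (2.05) went from a mean of 1.70 to 7.02 CPM and Sox7 (3.34) from 0.320 to 3.23 CPM. The summed level of the 10 was 266 to 272 CPM in Mock, 150.1 to 164 in Auxin and 214 to 222 in Reintroduction. That sum was mostly Sparc, which fell from a mean of 234 CPM in Mock to 99.5 in Auxin. In Reintroduction against Mock, 4 of the 10 were higher and 3 lower. Of 9 trophoblast markers tested, 6 were higher and 3 lower in Auxin, and 7 were higher and 2 lower in Reintroduction against Mock. The sum of all 10 was 141 to 143 CPM in Mock, 224 to 245 in Auxin and 255 to 267 in Reintroduction. Of 5 mesoderm markers tested, 0 were higher and 3 lower in Auxin. Against Mock, Reintroduction had 1 mesoderm marker higher, Eomes (35.4 to 66.9 CPM), and 2 lower, T (-2.84) and Mixl1 (-2.04), while the sum of all 6 was 47.6 to 49.1 CPM in Mock, 25.7 to 28.6 in Auxin and 68.9 to 71.4 in Reintroduction. Of 4 fibroblast markers tested, 2 were higher and 1, Col1a1 (-1.47), lower in Auxin, and 1 was higher and 2 lower in Reintroduction against Mock. The sum of all 6 was 21.9 to 24.6 CPM in Mock, 44.2 to 53.5 in Auxin and 41.0 to 42.2 in Reintroduction, mostly from Thy1 (means of 17.9, 41.2 and 37.5 CPM), with Col3a1 at 0 counts in Auxin. Of 5 neuroectoderm markers tested, 1 was higher and 3 lower in Auxin, and 0 were higher and 1 lower in Reintroduction against Mock. Neurog2 had 0 counts in every library. The sum of all 6 was 113 to 123 CPM in Mock, 81.7 to 98.0 in Auxin and 80.6 to 83.2 in Reintroduction. Markers of 2-cell-like cells summed to at most 0.631 CPM in any library.

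The share of counts from mitochondrial genes was 3.79 to 4.0% in Mock, 3.79 to 3.96% in Auxin and 4.58 to 4.80% in Reintroduction, so Reintroduction stood apart. These markers and this share moved with the groups, and their part in the results below was not tested. In bulk RNA, fewer cells that express a gene and less of its RNA per cell cannot be told apart. The values also followed gene length and GC content differently between groups. Per doubling of exon length, log2 CPM of a library relative to the mean of all libraries changed by -0.25 to -0.17 in Mock, by 0.013 to 0.15 in Auxin and by 0.083 to 0.097 in Reintroduction. Per 10 percentage points of GC, the change was 0.16 to 0.26 in Mock and -0.18 to -0.13 in Reintroduction. In Auxin it was -0.096 and -0.14 in replicates 1 and 3, and 0.14 in replicate 2, which also had the lowest length slope of its group. These trends and the change from Mock cannot be told apart by design.

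Most of the naive factors were more abundant in Auxin than in Mock, and nearly all of them were less abundant after the washout than before it. In Auxin, Prdm14 and Klf5 were 3.21 and 3.06-fold higher than in Mock, Klf4, Tfcp2l1 and Esrrb were 1.75, 1.73 and 1.44-fold higher, and Nanog and Zfp42 were 1.14 and 1.13-fold higher. Dppa3, at under 1 CPM, was lower, and Klf2 and Nr0b1 did not pass the test. The threshold for a call was an adjusted p-value below 0.05 (edgeR quasi-likelihood test, Benjamini-Hochberg over all genes tested, two-sided). By that rule 7 of the 10 factors were higher and 1 was lower in Auxin, beside 38.4% of all genes tested called higher and 34.8% called lower (73.2% together). The libraries of the 2 groups did not overlap for 8 of the 10 factors and for 74.3% of all genes. The share of the factors called was thus near that of all genes. Their median log2 fold change was 0.36, and that of all genes was 0.050.

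After 4.5 h of washout, all 10 factors were called against Auxin, 9 lower and 1, Dppa3, higher, beside 25.5% of all genes called lower, 25.5% called higher and 50.9% together. The groups did not overlap for any of the 10, as for 58.2% of all genes. The median log2 fold change of the factors was -0.48, and that of all genes was 0.00266. Klf5 fell most, by 2.56-fold, and Prdm14 least, by 1.22-fold. Against Mock, 3 factors remained higher in Reintroduction (Prdm14, Tfcp2l1 and Klf5) and 4 were lower (Klf2, Nr0b1, Zfp42 and Nanog), beside 34.7% of all genes called higher, 33.4% called lower and 68.1% together. The groups did not overlap for 8 of the 10 factors and for 75.2% of all genes. The share of the factors called against Mock was again near that of all genes. With the length trend removed, the sign of Tfcp2l1 against Mock turned and the calls of Zfp42 and Nanog were lost. Both comparisons with Auxin use the same Auxin libraries, so a value that is high there enters both, and the comparisons are given side by side rather than as independent results. The summed level of the 10 factors was 4354 to 4462 CPM in Mock, 5887 to 6319 CPM in Auxin and 4413 to 4482 CPM in Reintroduction.

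**Figure D1:**
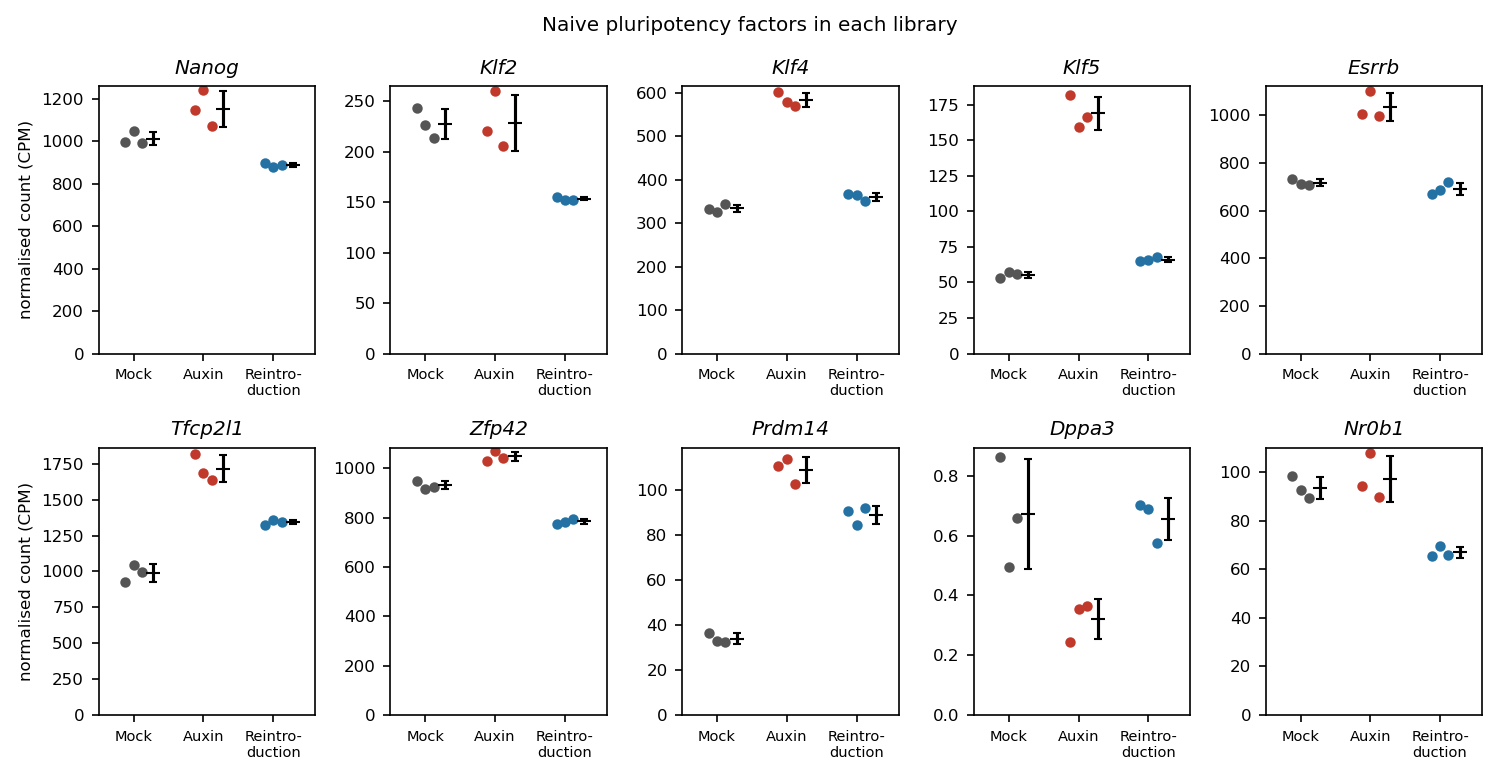
Normalised count (CPM, vertical axis from 0) of each naive factor in each of the 9 libraries, with points for libraries and black marks for the mean and SD of a group (n = 3). Klf4, Klf5, Esrrb and Tfcp2l1 stand highest in Auxin, while Klf2 and Nr0b1 are low in the 3 Reintroduction libraries and Dppa3 is low in the 3 Auxin libraries.

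Promoter sequence is shown for the factors with the most CpG-rich promoters in the table, Klf4 and Klf2, and for those with a motif match, Nanog and Zfp42, since PRC2 is known to occupy CpG-rich promoters. The table had none for Klf5, Prdm14 and Dppa3. The sequences are from RefSeq (GRCm38.p6, the assembly of mm10), whose table held 9 promoters of 7 of the 10 factors. Each window has 250 bases before and 50 bases after a start site, and only bases before the start are printed. In that window the Klf4 promoter held 40 CpG dinucleotides and the Klf2 promoter 32, more than 96.1% and 90.5% of the 32851 promoters in the table. Zfp42 held 11, and both Nanog promoters held 4, where the median of all promoters was 7. Tfcp2l1 held 21, Nr0b1 14 and both Esrrb promoters 7. Any link between CpG content and the changes in the 3 groups was not tested. Capitals mark motif matches.
Nanog, chr6:122707239-122707488, plus strand: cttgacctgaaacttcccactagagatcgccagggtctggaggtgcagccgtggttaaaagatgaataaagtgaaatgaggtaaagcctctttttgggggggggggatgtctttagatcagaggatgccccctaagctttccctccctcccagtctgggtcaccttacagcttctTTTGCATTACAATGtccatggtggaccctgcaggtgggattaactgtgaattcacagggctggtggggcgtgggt
Zfp42, chr8:43307010-43307259, minus strand: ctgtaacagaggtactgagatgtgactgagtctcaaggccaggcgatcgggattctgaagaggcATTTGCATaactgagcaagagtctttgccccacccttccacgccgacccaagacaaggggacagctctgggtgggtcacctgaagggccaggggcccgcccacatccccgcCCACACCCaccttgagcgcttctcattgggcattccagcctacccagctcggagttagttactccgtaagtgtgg
Klf4, chr4:55532476-55532725, minus strand: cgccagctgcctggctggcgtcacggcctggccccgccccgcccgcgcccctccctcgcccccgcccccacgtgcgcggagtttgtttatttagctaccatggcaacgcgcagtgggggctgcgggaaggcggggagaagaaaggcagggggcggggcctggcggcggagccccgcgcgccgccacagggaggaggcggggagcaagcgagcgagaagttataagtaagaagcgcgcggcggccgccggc
Klf2, chr8:72318812-72319032, plus strand: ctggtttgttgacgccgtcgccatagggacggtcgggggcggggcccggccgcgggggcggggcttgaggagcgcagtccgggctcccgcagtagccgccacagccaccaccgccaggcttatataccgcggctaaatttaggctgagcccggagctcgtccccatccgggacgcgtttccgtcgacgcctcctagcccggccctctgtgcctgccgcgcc

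Motifs were searched on both strands of the whole window. The Nanog match is to the SOX2-OCT4 composite element, in a form shortened by 1 base after the sequences had been seen. It lies on the opposite strand, from -75 to -62 relative to the start site in this window. Of all promoters 0.00609% held it, namely the 2 overlapping Nanog windows. The longer form was in 0 of the 32851 promoters. In Zfp42, the octamer ATGCAAAT, which the longer form of the composite element contains whole and the shorter form in part, matched on the opposite strand from -186 to -179, and 1.74% of promoters held it. The KLF motif GGGTGTGG matched there on the opposite strand from -75 to -68, and 3.56% of promoters held it. No window of the 7 factors held the STAT3 motif TTCCNGGAA, the ESRRB motif TCAAGGTCA or the TCF/LEF motif CTTTGAT, which were in 1.15%, 0.423% and 3.73% of promoters. A match is a description of the letters and not a measured binding site.

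The 3 Krüppel-like factors, zinc finger proteins that bind GC-rich sequences and can stand in for each other in sustaining self-renewal, included both the factor that fell most after washout, Klf5, and one that did not pass the test in Auxin, Klf2. Klf4 (ENSMUSG00000003032.8; mm10 chromosome 4, 55527143 to 55532466, minus strand) had 333, 327 and 344 CPM in the Mock libraries, 602, 579 and 569 CPM in those of Auxin and 367, 366 and 351 CPM in those of Reintroduction. Auxin lay above both other groups, and the Reintroduction libraries were above all Mock libraries by a small margin. The log2 fold change was 0.80 (SE 0.0496, adjusted p = 6.53e-08) in Auxin against Mock and -0.69 (SE 0.0496, adjusted p = 8.72e-07) in Reintroduction against Auxin (edgeR). In Reintroduction against Mock it was 0.11 (SE 0.0494, adjusted p = 0.0667), which did not pass, with a 95% interval of -0.010 to 0.23. It passed under 7 of 20 alternatives that set no minimum fold, for example at 0.24 when libraries were scaled by total counts.

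Klf5 (ENSMUSG00000005148.7; mm10 chromosome 14, 99298691 to 99313405, plus strand) fell more after washout than the other 9 factors did. It had 52.9, 57.1 and 55.7 CPM in the Mock libraries, 182, 159 and 166 CPM in those of Auxin and 64.9, 65.7 and 67.9 CPM in those of Reintroduction. Each Auxin library held more than 2 times the level of any other library, and Reintroduction lay above Mock without overlap. The log2 fold changes were 1.61 (SE 0.0607, adjusted p = 1.68e-09) in Auxin against Mock, -1.35 (SE 0.0603, adjusted p = 2.46e-08) in Reintroduction against Auxin and 0.26 (SE 0.0597, adjusted p = 0.00245) in Reintroduction against Mock (edgeR). The first of these was larger in size than that of 84.7% of the genes tested, and the second than that of 93.8%. The count table's model of Klf5 has 1721 bp of exon and ends at 99313405, while GENCODE M21 ends the gene at 99315036 and gives it 5201 bp over all transcripts, so exon sequence beyond that model was not counted for it. The call against Mock held under each of 20 alternatives that set no minimum fold, at 0.21 to 0.50.

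Klf2 (ENSMUSG00000055148.7; mm10 chromosome 8, 72319033 to 72321656, plus strand) was lower in Reintroduction than in either other group. Its levels were 243, 226 and 214 CPM in the Mock libraries, 219.9, 259.5 and 206 CPM in those of Auxin and 155, 152 and 152 CPM in those of Reintroduction. The Mock and Auxin libraries overlapped, and every Reintroduction library was below them. Comparing Auxin with Mock gave, on the log2 scale, 0.0042 (SE 0.0814, adjusted p = 0.966), with a 95% interval of -0.19 to 0.20, and had no stable direction. It was -0.10 without Auxin replicate 2, which held the highest Klf2 level, and 0.24, past the threshold, with length trends removed. The fall from Auxin to Reintroduction was -0.58 (SE 0.0818, adjusted p = 1.49e-04), and that from Mock to Reintroduction -0.57 (SE 0.0818, adjusted p = 8.97e-05) (edgeR). The latter, under 2-fold in size, was called lower under each of 20 alternatives that set no minimum fold, at -0.35 with length trends removed.

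**Figure D2:**
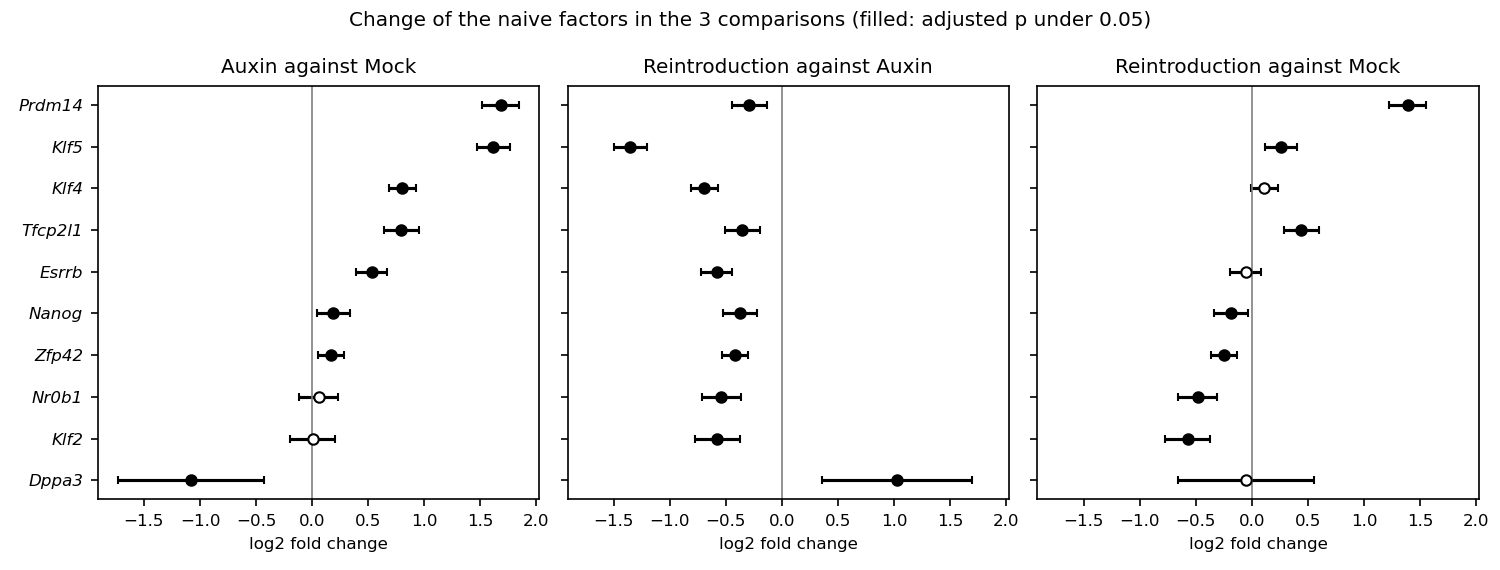
Log2 fold change of each naive factor (horizontal axis) with its 95% interval in the 3 comparisons, filled where the adjusted p-value was under 0.05 and open otherwise; genes are ordered by their change in Auxin against Mock. Prdm14 and Klf5 lead the rise in Auxin, 9 of the 10 factors lie below 0 in Reintroduction against Auxin, and Prdm14 alone is more than 2-fold from Mock in Reintroduction.

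Nanog, a homeodomain protein that raises the threshold for leaving the pluripotent state, was highest in Auxin and lowest in Reintroduction. Nanog (ENSMUSG00000012396.12; mm10 chromosome 6, 122707489 to 122714633, plus strand) had 997, 1051 and 992 CPM in the Mock libraries, 1148, 1243 and 1074 CPM in those of Auxin and 899, 881 and 889.7 CPM in those of Reintroduction. The 3 groups did not overlap. Comparing Auxin with Mock gave, on the log2 scale, 0.19 (SE 0.0611, adjusted p = 0.0158). That call was lost without Mock replicate 1 (0.16, adjusted p = 0.0576) or Mock replicate 3 (0.16, adjusted p = 0.0701), and without Auxin replicate 2 the change was 0.13. In Reintroduction against Auxin it was -0.38 (SE 0.0612, adjusted p = 3.91e-04), and in Reintroduction against Mock -0.19 (SE 0.0611, adjusted p = 0.018) (edgeR). The call against Mock was lost without Reintroduction replicate 2 (-0.18, adjusted p = 0.0609), under total counts (-0.057) and with length trends removed (-0.029). The processed copy Nanog-ps1 held 4.51 ± 0.128 CPM in Mock, 5.08 ± 0.481 in Auxin and 3.98 ± 0.340 in Reintroduction. Nanog-ps2 held 16.3 ± 1.44, 18.4 ± 0.290 and 14.0 ± 1.58 CPM in the same order. The means of both copies were thus highest in Auxin and lowest in Reintroduction, as for Nanog.

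Esrrb, an orphan nuclear receptor that can replace Nanog in sustaining self-renewal, rose in Auxin and fell back. Esrrb (ENSMUSG00000021255.17; mm10 chromosome 12, 86361117 to 86521628, plus strand) had 735, 711 and 706 CPM in the Mock libraries, 1005, 1102 and 999 CPM in those of Auxin and 668, 686 and 719 CPM in those of Reintroduction. Auxin stood above the other groups, which overlapped. The log2 fold change was 0.53 (SE 0.0573, adjusted p = 6.53e-06) in Auxin against Mock and -0.58 (SE 0.0573, adjusted p = 9.29e-06) in Reintroduction against Auxin (edgeR). The former became 0.29 with length trends removed and 0.36 with both length and GC trends removed, and was called each time. In Reintroduction against Mock it was -0.054 (SE 0.0571, adjusted p = 0.42), with a 95% interval of -0.19 to 0.086. It was called lower when trends were removed, at -0.30, and its sign turned under total counts (0.077).

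Tfcp2l1, a CP2-family transcription factor downstream of LIF and Stat3, had the highest CPM of the factors in Auxin. Tfcp2l1 (ENSMUSG00000026380.10; mm10 chromosome 1, 118627945 to 118685168, plus strand) had 923, 1046 and 994 CPM in the Mock libraries, 1819, 1685 and 1637 CPM in those of Auxin and 1326, 1355 and 1347 CPM in those of Reintroduction. The groups did not overlap, and Reintroduction lay between the other two. The log2 fold changes were 0.79 (SE 0.0631, adjusted p = 4.92e-07) in Auxin against Mock, -0.35 (SE 0.0628, adjusted p = 7.45e-04) in Reintroduction against Auxin and 0.44 (SE 0.0628, adjusted p = 8.40e-05) in Reintroduction against Mock (edgeR). With 9438 bp of exon it is the longest of the 10, and both differences from Mock moved with the length trend. With that trend removed the change in Auxin against Mock was 0.32, still called, and it was 0.11 and not called when the length of the longest GENCODE transcript was used. In Reintroduction against Mock the sign turned, to -0.044, -0.0066 and -0.30 under the 3 trend corrections. The fall in Reintroduction against Auxin was -0.36 with length trends removed. Tfcp2l1 shares 130 bp of exon with the small nuclear RNA gene Gm23497 on the same strand.

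Prdm14, a PR-domain protein that restrains FGF signalling and de novo DNA methyltransferases, was the factor furthest from Mock after washout. Prdm14 (ENSMUSG00000042414.7; mm10 chromosome 1, 13113457 to 13127163, minus strand) had 36.7, 33.0 and 32.4 CPM in the Mock libraries, 111, 114 and 103 CPM in those of Auxin and 90.6, 84.7 and 92.3 CPM in those of Reintroduction. All Auxin and Reintroduction libraries were above all Mock libraries, and Reintroduction was below Auxin without overlap. The log2 fold changes were 1.68 (SE 0.0668, adjusted p = 2.47e-09) in Auxin against Mock, -0.29 (SE 0.0648, adjusted p = 0.00315) in Reintroduction against Auxin and 1.39 (SE 0.0664, adjusted p = 2.89e-08) in Reintroduction against Mock (edgeR). The level in Reintroduction was still 2.62-fold that in Mock. These calls held under each of 20 alternatives, apart from the requirement of a 2-fold change, which the change from Auxin did not meet, and the differences from Mock were larger with both length and GC trends removed (1.82 and 1.57).

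Zfp42, also known as Rex1, is a zinc finger protein derived from a retroposed copy of Yy1 and a common reporter of the naive state. Zfp42 (ENSMUSG00000051176.6; mm10 chromosome 8, 43295063 to 43306980, minus strand) had 949.6, 918 and 925 CPM in the Mock libraries, 1031, 1069 and 1042 CPM in those of Auxin and 775, 783 and 796 CPM in those of Reintroduction, with no overlap between groups. The log2 fold changes were 0.17 (SE 0.0475, adjusted p = 0.00706) in Auxin against Mock, -0.42 (SE 0.0476, adjusted p = 2.94e-05) in Reintroduction against Auxin and -0.25 (SE 0.0475, adjusted p = 7.87e-04) in Reintroduction against Mock (edgeR). With length trends removed the first was 0.41, and the last was -0.031 and no longer called.

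Nr0b1, also known as Dax1, is an orphan nuclear receptor that binds to and represses other nuclear receptors. Nr0b1 (ENSMUSG00000025056.4; mm10 chromosome X, 86191764 to 86195947, plus strand) had 98.5, 92.5 and 89.3 CPM in the Mock libraries, 94.1, 108 and 89.9 CPM in those of Auxin and 65.3, 69.5 and 66.0 CPM in those of Reintroduction. Mock and Auxin overlapped, and the Reintroduction libraries were below both, as for Klf2. Comparing Auxin with Mock gave, on the log2 scale, 0.058 (SE 0.0712, adjusted p = 0.477), with a 95% interval of -0.12 to 0.23. It was -0.029 without Auxin replicate 2, and it was called higher under total counts (0.27) and with length trends removed (0.31). After washout it was -0.54 (SE 0.0717, adjusted p = 9.00e-05) against Auxin and -0.48 (SE 0.0717, adjusted p = 1.19e-04) against Mock (edgeR). The latter was -0.25 with length trends removed and -0.14 with both length and GC trends removed, and was called each time.

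Dppa3, also known as Stella, protects DNA methylation states in the oocyte and embryo and binds Uhrf1. Dppa3 (ENSMUSG00000046323.8; mm10 chromosome 6, 122626410 to 122630272, plus strand) was at a low level, with 89, 41 and 47 counts in Mock replicates 1 to 3, then 20, 27 and 25 in Auxin, then 56, 31 and 47 after washout. These are 0.864, 0.495 and 0.657 CPM in the Mock libraries, 0.244, 0.354 and 0.365 CPM in those of Auxin and 0.702, 0.690 and 0.576 CPM in those of Reintroduction. Every Auxin library was below every other library. The log2 fold changes were -1.08 (SE 0.266, adjusted p = 0.00339) in Auxin against Mock and 1.03 (SE 0.273, adjusted p = 0.00874) in Reintroduction against Auxin (edgeR). With length trends removed the former was -0.52 and was no longer called (adjusted p = 0.0783). At 892 bp of exon, Dppa3 is the shortest of the 10. In Reintroduction against Mock the change was -0.051 (SE 0.248, adjusted p = 0.866), with a 95% interval of -0.66 to 0.56. Its sign turned without Mock replicate 1 (0.16) or Reintroduction replicate 3 (0.022). The processed copy Dppa3-ps on chromosome X held more counts than the gene in every library, with 115, 105 and 94 in Mock, then 42, 52 and 26 in Auxin, then 98, 38 and 90 after washout. How reads that fit both were split is not given in the sources used here.

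**Figure D3:**
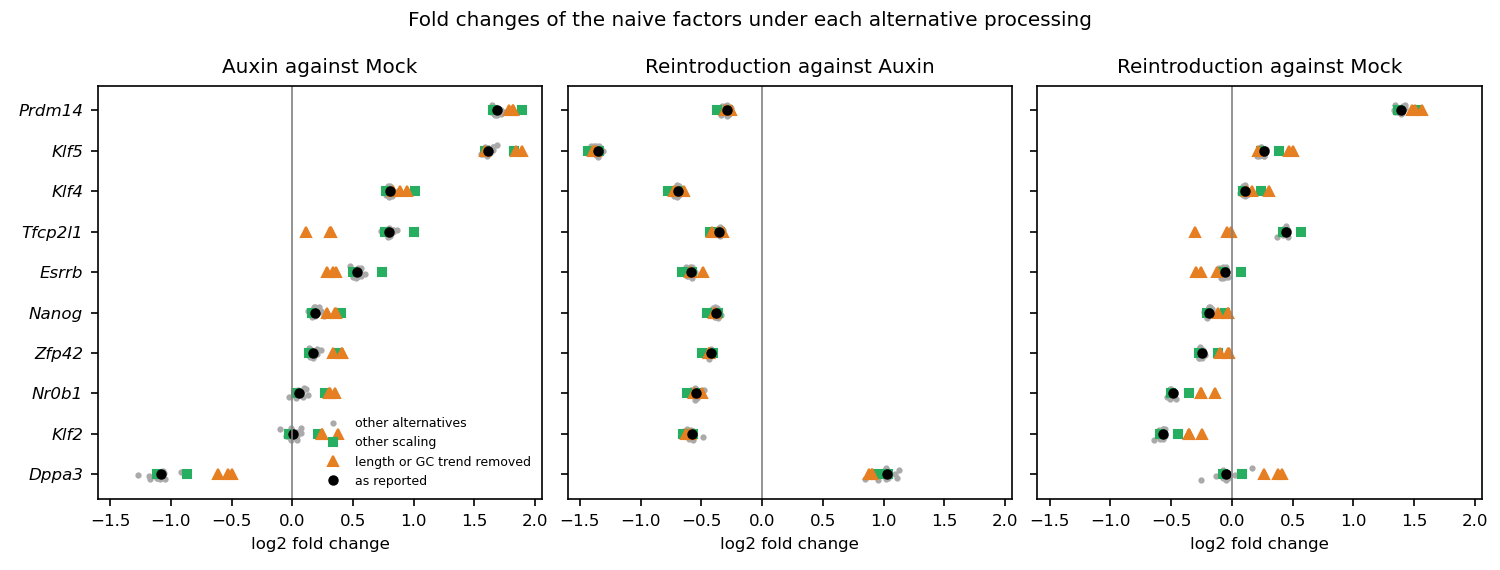
Log2 fold change (horizontal axis) of each naive factor in the 3 comparisons as reported (black circles), under other scalings (green squares), with per-library length or GC trends removed (orange triangles) and under the other alternatives (grey points). In Reintroduction against Auxin no factor crosses 0, while the trend corrections move most factors in the comparisons with Mock, Tfcp2l1 and Dppa3 by the most.

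Levels were compared between genes per kilobase of exon. In Mock, Zfp42 (495 CPM per kb) and Nanog (452) were highest, above 98.8% and 98.7% of the genes tested. Klf2 (123) and Esrrb (119) followed with overlapping libraries, then Klf4 (109.7) and Tfcp2l1 (105), which overlapped as well. Nr0b1 (51.7), Klf5 (32.1), Prdm14 (13.3) and Dppa3 (0.753) came last, each apart from its neighbours. In Auxin, Zfp42 (557 CPM per kb) and Nanog (515) overlapped at the top, and Klf4 (191), Tfcp2l1 (182) and Esrrb (171) all stood above Klf2 (124). Klf5, at 98.2 CPM per kb, moved ahead of Nr0b1. In Reintroduction, Klf5 (38.4 CPM per kb) and Nr0b1 (37.0) overlapped, with Prdm14 (34.8) just below them. The Klf5 level is per the shortened model of the count table, and the per-kb order shares the length trends described above.

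**Figure D4:**
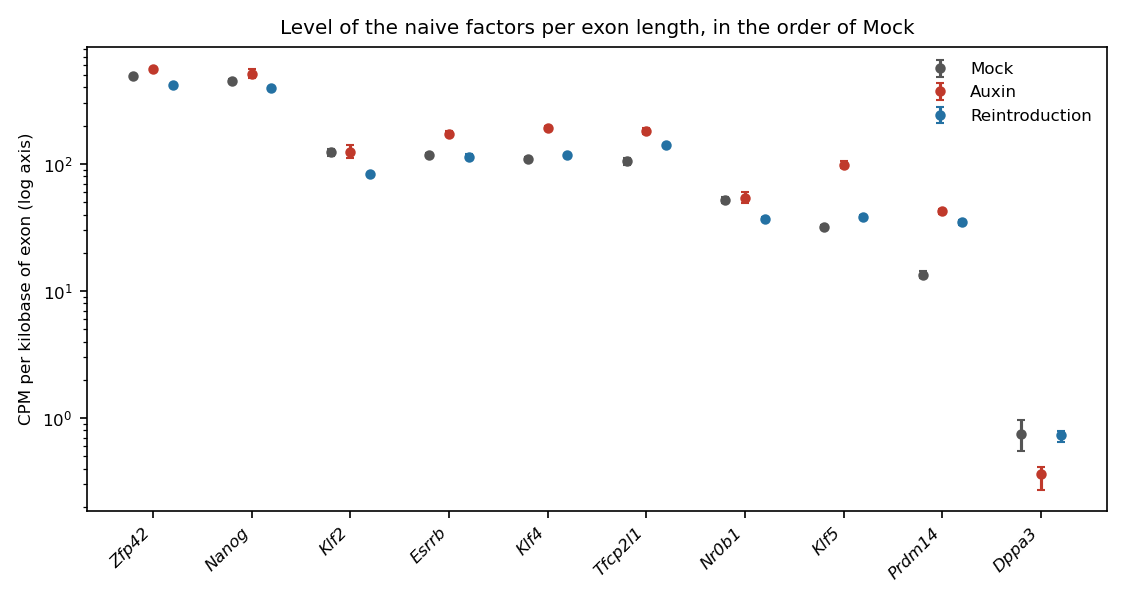
Level of each naive factor per kilobase of exon (CPM per kb, log axis) in the 3 groups, as the mean with bars from the lowest to the highest of 3 libraries; genes are in the order of Mock. Klf5 and Prdm14 move up in Auxin, and Prdm14 stays high in Reintroduction.

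Across the 9 libraries, Klf4 and Klf5 had the most alike profiles among the factors (Pearson r = 0.994 of log2(CPM + 0.5)), followed by Klf2 and Nr0b1 (r = 0.989). Among 12022 genes averaging 5 CPM or more, the closest profiles were for Klf4 Car13 (r = 0.997) and G0s2 (r = 0.997), for Klf5 Ahnak2 (r = 0.998) and Prrc2b (r = 0.998), and for Esrrb Psph (r = 0.998) and Ap3d1 (r = 0.996). For Tfcp2l1 they were Elk1 (r = 0.996) and Pigh (r = 0.995), for Prdm14 Capn2 (r = 0.998) and Pink1 (r = 0.998), and for Zfp42 Slc7a3 (r = 0.998) and Ogdhl (r = 0.996). For Nanog they were Rbm22 (r = 0.983) and Slc35f6 (r = 0.978), for Klf2 Mthfd1l (r = 0.994) and Tmx2 (r = 0.991), for Nr0b1 Klf2 (r = 0.989) and Cdx1 (r = 0.987), and for Dppa3 Alad (r = 0.962) and Lypla2 (r = 0.958). These values are descriptions: the libraries fall into 3 groups and share depth and composition, and between 6 genes (Dppa3) and 1045 genes (Prdm14) reached an r over 0.95. G0s2 tracked Klf4 in shape although it differed far more in size, with a log2 fold change of 5.09 from Mock to Auxin.

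Of 17 other genes of the naive state in Auxin against Mock, 7 were higher and 9 lower by the same rule. For this and the following lists, the shares over all genes are 38.4% higher and 34.8% lower in Auxin against Mock and 25.5% in each direction in Reintroduction against Auxin. The median log2 fold change was -0.25 beside 0.050 for all genes. The named genes of this and the following lists are given by log2 fold change in edgeR, and each value passed the test unless its adjusted p is given. Of the genes with the smallest p-values, Pecam1, an adhesion molecule on naive cells, rose by 1.36 on the log2 scale. Gbx2, a homeobox gene downstream of Stat3, had a log2 fold change of -2.65, and Zscan10 had -1.38. After washout, 8 were higher and 5 lower (median 0.25), and Pecam1 (-1.35), Gbx2 (1.56) and L1td1 (1.18) also passed the test. The levels were 66.8, 171 and 67.5 CPM for Pecam1 and 21.2, 3.37 and 9.93 CPM for Gbx2 in Mock, Auxin and Reintroduction. Gbx2 shares exon sequence with another gene.

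Among the core pluripotency genes, Sox2, which acts with Oct4 (Pou5f1) on the composite element printed above, had 374 ± 8.55, 749 ± 12.4 and 452 ± 6.02 CPM in the 3 groups in the order Mock, Auxin, Reintroduction (here and below ± SD, n = 3), with log2 fold changes of 1.00 and -0.73. Lin28a, an RNA-binding protein that blocks let-7 processing, changed by -1.82 and then 1.02, and Utf1 by -1.03 and then 1.03. All 6 genes of the list were called in Auxin against Mock, 2 higher and 4 lower (median -0.34). Lin28a shares exon sequence with another gene.

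Of the 10 genes of the LIF and STAT3 pathway, 6 were called higher and 4 lower in Auxin against Mock (median 0.30). The kinase genes Jak1 (1.32) and Jak2 (1.80) rose, and Pim3 had a log2 fold change of -0.61. After washout, 4 were higher and 2 lower than in Auxin: Stat3 (-0.58) and Pim1 (-0.50) fell and Lifr rose (0.67). Stat3 had a mean of 129 ± 1.98 CPM in Mock, of 166 ± 5.96 in Auxin and of 111 ± 2.20 in Reintroduction. Under total counts 2 genes of the list were lower in Auxin. Jak1, Stat3 and Pim1 share exon sequence with other genes.

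Among the 10 genes around GSK3, beta-catenin and TCF, 4 were higher and 4 lower in Auxin against Mock (median 0.028). Axin2 and Tcf7, both targets of Wnt signalling, fell by 1.18 and 1.2 on the log2 scale, and Ctnnb1, which encodes beta-catenin, rose by 0.36. After washout 4 were higher and 0 lower (median 0.18), led by Tcf7 (1.09), Axin2 (0.86) and Tcf7l2 (0.26). The call of Tcf7l2 was lost under total counts, without Auxin replicate 1 and without Reintroduction replicate 1, where its log2 fold change was 0.18, 0.20 and 0.21. These counts moved with single libraries and with the processing. In Auxin 2 were higher without Mock replicate 3 or with length trends removed. After washout 2 were higher without Reintroduction replicate 1, and 2 were higher and 3 lower under total counts. Also after washout, 1 was lower without Reintroduction replicate 2, with counts halved or with both length and GC trends removed. Under the filter of 1 CPM in 3 libraries 3 were lower after washout. Tcf7l1, the repressor of Esrrb, had 36.4 ± 2.29 CPM in Mock and 40.3 ± 1.89 CPM in Auxin (log2 fold change 0.15, adjusted p = 0.0489, edgeR). Axin2, Ctnnb1 and Tcf7l1 share exon sequence with other genes.

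In the FGF and ERK pathway, 1 of 14 genes was higher and 11 were lower in Auxin against Mock, beside 38.4% and 34.8% of all genes, with a median of -0.39 beside 0.050. Etv4 and Spry4, which are induced by ERK signalling, fell by 1.85 and 0.95 on the log2 scale, and Mapk3, which encodes ERK1, fell by 0.83. Spry2 went the other way: it was the 1 gene called higher in Auxin (0.26), and it was lower after washout (-0.45). Washout brought 4 higher and 2 lower against Auxin, where 25.5% of all genes were called each way (median 0.16), and Etv4 (0.97), Dusp6 (0.76) and Spry4 (0.70) rose. Under total counts the Auxin calls were 2 higher and 7 lower, and without Auxin replicate 2 the number higher was 2. With both length and GC trends removed, 8 were higher after washout. Spry4 had 80.9 ± 3.28, 41.8 ± 2.68 and 67.9 ± 5.43 CPM in Mock, Auxin and Reintroduction.

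Of 10 genes of the formative and primed states, which follow the naive state, 4 were higher and 3 lower in Auxin against Mock (median -0.019). Otx2, a homeodomain factor of the formative state, rose by 3.08 on the log2 scale, from 5.91 to 6.11 CPM in the Mock libraries to 50.6 ± 2.56 CPM in Auxin, and had 45.3 ± 1.60 CPM in Reintroduction. Zic2 rose by 1.40 and Tcf15 fell by 1.97. After washout 3 were higher and 4 lower against Auxin, with Dnmt3b (1.2) and Tcf15 (1.53) up and Zic2 (-0.42) down. With length trends removed, 5 of the formative and primed genes were lower in Auxin. Of 10 regulators of exit from the naive state, 3 were higher and 4 lower in Auxin (median 0.0058). Flcn, the folliculin gene, rose by 0.63 and then fell by 1.57 to 27.8 ± 0.503 CPM, below its 53.4 ± 2.66 CPM in Mock. Under total counts 6 regulators were higher in Auxin, and with both length and GC trends removed 7 were lower. Mbd3 and Hdac3, both subunits of corepressor complexes, fell by 1.06 and 0.49 in Auxin, and Zfp281 rose by 0.52 after washout.

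Partners and antagonists of the factors numbered 7, with 2 higher and 3 lower in Auxin (median -0.054). Uhrf1 and Dnmt1, which together maintain DNA methylation, fell by 1.99 and 1.07 on the log2 scale in Auxin, and Dnmt3l fell by 1.29. Uhrf1 had 525 ± 9.74 CPM in Mock, against 125 to 146 CPM in the Auxin libraries and 226 ± 4.14 CPM in those of Reintroduction. All 3 were higher in Reintroduction than in Auxin, by 0.77, 0.39 and 0.45. Cbfa2t2, the partner of Prdm14, had a mean of 71.2 ± 0.526 CPM in Mock, of 68.6 ± 1.94 in Auxin and of 69.8 ± 0.181 in Reintroduction and was not called in any of the 3 comparisons. Dnmt3l shares exon sequence with another gene.

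Of 14 other Klf genes, 7 were higher and 3 lower in Auxin against Mock, with a median of 0.34. Klf10 and Klf11, both known as TGF-beta-inducible genes, rose by 1.44 and 1.67 and fell by 1.11 and 1.32 after washout, while Klf16 had -1.44 and then 1.01. Klf11 had 19.7 ± 1.05, 62.5 ± 2.55 and 25.1 ± 0.647 CPM in Mock, Auxin and Reintroduction. Of the relatives of the remaining factors, 8 of 10 were tested, 3 higher and 3 lower in Auxin (median 0.026). Tfcp2, the close relative of Tfcp2l1, rose by 1.45 and then fell by 0.73, and Prdm1 rose by 1.07 and fell by 1.74. Dppa2, which binds CpG-rich promoters, had -0.47 in Auxin against Mock, and its partner Dppa4 had 0.41 in Reintroduction against Auxin.

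**Figure D5:**
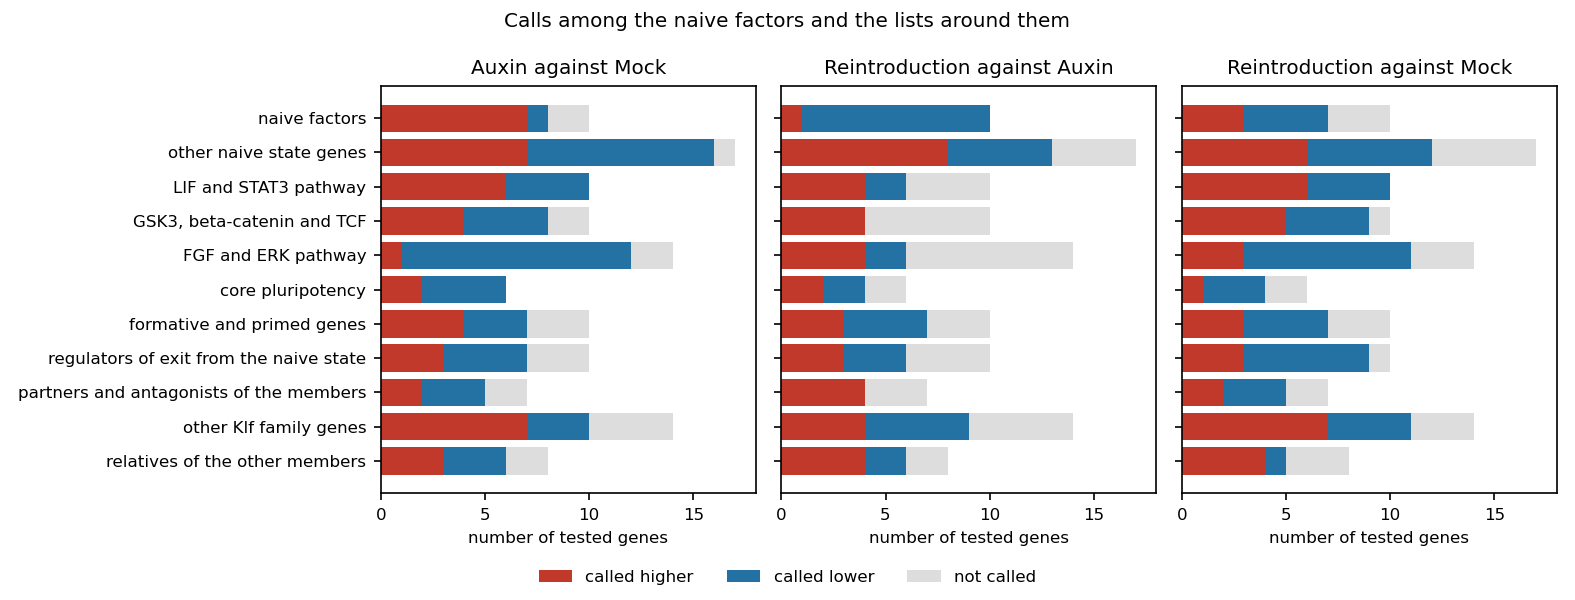
Number of tested genes called higher (red), called lower (blue) or not called (grey) in each comparison for the naive factors and 10 lists of related genes. All 10 naive factors are called in Reintroduction against Auxin, 9 of them lower, and 11 of 14 FGF and ERK pathway genes are called lower in Auxin against Mock.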

How the data were processed

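Polyadenylated RNA of 9 libraries was analysed. Per the file headers, the deposited values are raw counts per gene, made by the authors with featureCounts 2.0.6 over exons in paired-end mode on an mm10 annotation, with no strand setting and no request to count pairs once. In each library genes with even counts from 2 to 10 outnumbered those with odd counts from 1 to 9 (Auxin replicate 1: 4035 and 2963), so the totals are of mates. Per the submitters' processing notes, Trim Galore 0.6.10, Bowtie2 2.5.3 and SAMtools 1.20 were also used, with no role given. Whether reads were aligned across exon junctions is not given in the sources used here. How reads were placed between Nanog or Dppa3 and their processed copies was not tested.

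Symbols named 48058 of 48440 genes. Genes passed by filterByExpr were scaled with TMM factors (0.905 to 1.08) and fitted in edgeR 4.0.16 (R 4.3.3) with group as the only term over all 9 libraries. The test was also run on simulated counts in which few genes changed, by 2-fold. Most genes were called in Auxin against Mock here, so that run does not check the scaling or the error rate of these data. CPM use the whole library total. Standard errors come from the F statistic, and 95% intervals from them with 6 degrees of freedom. The test itself used more degrees of freedom, so these intervals are wider than its p-values imply. Alternatives used DESeq2 1.42.0, other scalings and filters, halved counts, each library left out, a replicate block, a fold of at least 2, and removal of per-library trends of length and GC (mgcv 1.9.3), fitted on 10177 protein-coding genes above 2 in mean log2 CPM. Genes outside the 10 factors were named by rule: per list, the 3 smallest p-values in Auxin against Mock and in Reintroduction against Auxin, any gene of a list of up to 10, and the 2 most alike profiles per factor. Fut4, Spry2, the other markers given with values and Klf5's gene model were singled out after their values were seen. The factors and lists were chosen with earlier results of these data known.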

Additional observations from a re-analysis of the deposited data

How the results depend on the processing

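In Reintroduction against Auxin, the calls of all 10 factors held under each alternative that gave a value, apart from the requirement of a 2-fold change, with the log2 fold change of Klf5 between -1.43 and -1.31 and that of Nanog between -0.46 and -0.34; Dppa3 has no value under the filter of 1 CPM in 3 libraries, which removed it, so 0 factors were then higher in that comparison and 0 lower in Auxin against Mock. Removing the length trend, by exon or by GENCODE transcript length (added after seeing the data), also left 0 factors lower in Auxin against Mock. The requirement of a fold of at least 2 gave 3 factors and 6625 genes in Auxin against Mock, 2 factors and 2289 genes in Reintroduction against Auxin, and 1 factor and 4664 genes in Reintroduction against Mock. Under total counts the all-gene median in Auxin against Mock went from 0.050 to 0.26 on the log2 scale and the share of calls that were higher from 52.4% to 63.3%; in Reintroduction against Auxin the share went from 50.0% to 40.1%. The log2 fold change of Klf2 in Auxin against Mock turned sign under DESeq2 size factors (-0.0256), without the filter (-0.00029), under the DESeq2 Wald test (-0.0256) and without single libraries (-0.10 to 0.076 over the 9), as did that of Nr0b1 without Auxin replicate 2 (-0.029, with 0.11 as the highest value without a library). In Reintroduction against Mock, signs turned for Esrrb under total counts (0.077), for Tfcp2l1 under the length (-0.044), length and GC (-0.0066) and GENCODE length (-0.30) corrections, and for Dppa3 under total counts (0.084), the same corrections (0.38, 0.26 and 0.41) and without Mock replicate 1 (0.16) or Reintroduction replicate 3 (0.022), where leaving out each library gave -0.25 to 0.16. The causes were not tested beyond these settings. Leaving out each library gave 14381 to 16236, 9142 to 11581 and 13106 to 15313 called genes in Auxin against Mock, Reintroduction against Auxin and Reintroduction against Mock, and 7 to 8, 10 and 6 to 7 called factors. Deviations from the group means had r from -0.67 to 0.49 over 9 pairs of same-numbered replicates. Over 18 pairs of different number r was -0.63 to 0.72. The length and GC trends were not removed from these deviations, so they cannot settle whether the numbers pair the libraries. The replicate block gave 14808, 9829 and 13639 called genes and 8, 10 and 7 called factors in the 3 comparisons. Dppa3, with 20 to 89 counts per library, is limited by depth.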
